A study of Mus musculus with 20 samples.

Results

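Podocytes are the cells that wrap the glomerular capillaries of the kidney and form its outer filter. Transcripts of 7 genes used as their markers, Nphs1, Podxl, Ptpro, Synpo, Cd2ap, Actn4 and Wt1, were followed through 20 RNA-seq libraries of whole mouse kidney pieces. They were taken from the table of read counts by gene symbol, and all 7 were found among its 24421 symbols. The mice were 12 weeks old by the series' design text (10 to 12 weeks in the methods of the study), of mixed C57BL/6 and 129/SvJ background, and all carried Cre-ERT2 on both alleles of the ubiquitously active Rosa26 locus (R26 CreERT2/CreERT2). The groups called Fh1-/- were Fh1 fl/fl mice, in which tamoxifen (3 intraperitoneal injections of 2 mg, on every other day) lets Cre excise exons 3 and 4 of Fh1, the gene of fumarate hydratase. The groups called Fh1+/+ were littermates without the floxed allele that received the same tamoxifen. Collection was at day 5 or day 10, with 5 libraries for each genotype and day. Because Cre was active in every cell type, the loss of Fh1 in podocytes and in other kidney cells cannot be told apart.

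A podocyte extends foot processes over the capillary, and neighbouring foot processes are joined by the slit diaphragm, which holds back plasma protein. Nphs1 encodes nephrin, the adhesion protein at the core of the slit diaphragm, and Cd2ap encodes an adaptor that ties nephrin to actin. Podxl encodes podocalyxin, the negatively charged sialomucin of the foot process surface that is also made by endothelial cells, and Ptpro encodes a receptor tyrosine phosphatase of the apical podocyte membrane. Synpo (synaptopodin) and Actn4 (alpha-actinin-4) organise the actin of foot processes, and Wt1 is a zinc finger transcription factor that podocytes keep into adult life. Cd2ap and Actn4 are also transcribed in many other cells, whereas nephrin in the kidney is largely a podocyte protein. Podocytes are a small minority of the cells of a kidney piece, so in these bulk samples fewer podocytes and less RNA per podocyte cannot be told apart.

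RefSeq promoter entries (build GRCm38.p6) were at hand for 4 of the 7 genes, and the 250 bases before the start site are shown for Ptpro, one of the genes that varied most between libraries, and for Actn4, the steadiest. The RefSeq window of Nphs1 lies within its GENCODE vM21 gene and that of Cd2ap lies largely within its gene, and they are not printed. Capitals mark the GC box GGGCGG, searched on both strands.
Ptpro, chr6:137252049-137252298, plus strand: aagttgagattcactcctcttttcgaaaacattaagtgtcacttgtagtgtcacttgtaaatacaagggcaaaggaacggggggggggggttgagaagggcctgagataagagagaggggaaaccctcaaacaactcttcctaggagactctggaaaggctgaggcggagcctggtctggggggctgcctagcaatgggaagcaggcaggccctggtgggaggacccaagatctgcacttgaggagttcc
Actn4, chr7:28962333-28962582, minus strand: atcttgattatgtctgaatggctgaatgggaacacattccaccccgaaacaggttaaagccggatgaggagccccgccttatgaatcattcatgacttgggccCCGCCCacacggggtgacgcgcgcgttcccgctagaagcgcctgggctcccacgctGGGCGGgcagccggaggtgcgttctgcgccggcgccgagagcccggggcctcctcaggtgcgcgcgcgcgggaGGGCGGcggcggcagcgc
The Actn4 window held 3 GC boxes, and the Nphs1, Ptpro and Cd2ap windows held 0. Of all 32851 promoter windows of this length, 32.7% held at least 1. The content of G and C was 50.8% for Nphs1, 53.6% for Ptpro, 67.6% for Actn4 and 76.4% for Cd2ap, beside a median of 52.4% over all windows. These matches describe letters in the windows and were not tested as sites.

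Total counts lay between 16654829 and 25001294 per library. Fh1-/- day 10 replicates 1 and 3 stood apart from the other 18 libraries, at -119.7 and -122.2 on the first principal component, where the others lay between -28.6 and 29.6. Fh1 itself was at 249 to 420.5 CPM (read counts scaled to TMM-adjusted library size) in Fh1-/- and 224 to 258 CPM in Fh1+/+ libraries of day 10, and at 199.7 to 239 and 219 to 265 CPM at day 5. Since reads from the remaining Fh1 exons enter these counts, the genotypes are named as labelled and were not checked by them. The labels give no sex. The study used both male and female mice and states that it collected no data by sex. The summed level of 4 Y-linked genes (Ddx3y, Uty, Kdm5d and Eif2s3y) fell into 2 classes, 98.1 to 139 CPM in 12 libraries and 0.307 to 1.03 CPM in 8. These classes were taken from the transcripts alone and could not be checked against a recorded sex. Libraries without Y-linked transcripts were Fh1-/- day 10 replicates 1, 3 and 5, Fh1-/- day 5 replicates 2 and 5, Fh1+/+ day 10 replicates 2 and 3, and Fh1+/+ day 5 replicate 1. The genotype differences and the covariation of the podocyte genes are therefore also given within these classes, a choice made after the values were seen.

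All 7 genes passed the filter on low counts in every comparison. In the mouse build GRCm38 (GENCODE vM21), Nphs1 lies at chr7:30458315-30487223 and Actn4 at chr7:28893248-28962340, Podxl at chr6:31519488-31563981 and Ptpro at chr6:137252319-137463233, Wt1 at chr2:105126529-105173616 and Cd2ap at chr17:42792951-42876665, and the counts run over the exons of each gene. Per kilobase of exon, Actn4 and Podxl were the most abundant of them in every group, with group means of 57.4 to 61.1 and 28.2 to 40.6 reads per kilobase scaled to library size (RPKM), and Wt1 was the least abundant, with group means of 1.06 to 1.38 RPKM. Between them in level were Cd2ap at 5.31 to 8.33 RPKM, Synpo, Nphs1 and Ptpro.

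Nphs1 ranged widely within each group. At day 5, Nphs1 was at 44.1, 15.2, 12.3, 13.4 and 12.9 CPM in Fh1+/+ replicates 1 to 5. In Fh1-/- kidneys of the same day it was at 9.52, 39.9, 13.9, 14.4 and 49.1 CPM. The 3 high values were the 3 day 5 libraries without Y-linked transcripts, and the other 7 lay between 9.52 and 15.2 CPM. At day 10, Nphs1 was at 12.2, 31.0, 37.5, 18.1 and 14.7 CPM in Fh1+/+ replicates 1 to 5. In Fh1-/- kidneys of day 10 it was at 3.98, 16.2, 3.98, 24.9 and 34.5 CPM. The lowest values of all 20 libraries were thus in Fh1-/- day 10 replicates 1 and 3, and the genotypes overlapped on both days.

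Podxl had its highest and lowest values in libraries where Nphs1 was high and low. At day 5 it was at 342, 171, 156, 144 and 149 CPM in Fh1+/+ replicates 1 to 5. The Fh1-/- libraries of day 5 held 129, 295, 149.9, 128.2 and 351 CPM of Podxl. All 3 values above 290.0 CPM belonged to libraries without Y-linked transcripts. At day 10, Podxl was at 175, 292, 314, 175 and 158 CPM in Fh1+/+ replicates 1 to 5. The Fh1-/- libraries of day 10 held 62.5, 196, 56.7, 231 and 227 CPM. Replicates 1 and 3 were again the lowest of all 20, and the remaining 3 lay within the Fh1+/+ range.

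Ptpro had its lowest values in the same libraries. In Fh1+/+ kidneys it was at 31.8, 13.7, 11.9, 9.5 and 10.1 CPM at day 5 and at 10.7, 20.4, 29.5, 14.4 and 11.6 CPM at day 10, in the order of the replicates. The Fh1-/- libraries held 9.15, 30.9, 10.5, 11.8 and 31.3 CPM at day 5 and 2.82, 14.1, 3.13, 15.1 and 15.03 CPM at day 10. Fh1-/- day 10 replicate 5, which lacked Y-linked transcripts, was at 15.03 CPM for this phosphatase, below the 20.4 to 31.8 CPM of the 5 libraries of that class in the other groups.

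Wt1, the transcription factor, was the rarest of the 7. In Fh1+/+ kidneys it was at 14.2, 4.3, 4.95, 5.9 and 5.16 CPM at day 5 and at 6.4, 10.8, 13.04, 6.15 and 6.48 CPM at day 10. In Fh1-/- kidneys it was at 3.93, 10.7, 4.99, 5.39 and 12.98 CPM at day 5 and at 1.41, 6.08, 0.853, 11.2 and 13.2 CPM at day 10. The 2 lowest values were once more Fh1-/- day 10 replicates 1 and 3, and replicate 4 of that group, which had Y-linked transcripts, reached 11.2 CPM, the highest Wt1 of its class.

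Synpo was not at its lowest in Fh1-/- day 10 replicates 1 and 3. In Fh1+/+ kidneys this actin-associated transcript was at 74.1, 32.6, 26.7, 29.8 and 28.2 CPM at day 5 and at 31.8, 59.9, 68.2, 34.1 and 31.4 CPM at day 10. Its levels in Fh1-/- kidneys were 22.8, 57.0, 27.3, 24.9 and 78.4 CPM at day 5 and 53.3, 38.4, 55.3, 45.2 and 52.9 CPM at day 10. All 8 libraries without Y-linked transcripts, Fh1-/- day 10 replicates 1 and 3 included, lay between 52.9 and 78.4 CPM, above the 12 others at 22.8 to 45.2 CPM. The share of all genes that separated the 8 from the 12 was not counted. Among the 8 without Y-linked transcripts, Fh1-/- day 10 replicates 1, 3 and 5 held the lowest Synpo, 52.9 to 55.3 CPM. Those of the other groups lay at 57.0 to 78.4 CPM. For Nphs1, Podxl, Ptpro and Wt1, replicates 1 and 3 were far lower than the rest of their class.

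Cd2ap and Actn4 showed another pattern. Cd2ap was at 95.2, 89.0, 116, 73.6 and 76.6 CPM at day 5 and at 89.7, 112, 91.6, 98.4 and 78.7 CPM at day 10 in Fh1+/+ kidneys. For Fh1-/- libraries the values were 90.3, 86.9, 82.8, 79.8 and 81.6 CPM at day 5 and 195, 91.8, 152, 118 and 104 CPM at day 10. Its highest values of all 20 libraries, 195 and 152 CPM, were those of Fh1-/- day 10 replicates 1 and 3, where Nphs1 was lowest. Actn4 was the steadiest of the 7, between 293 and 425 CPM in all 20 libraries.

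**Figure D1:**
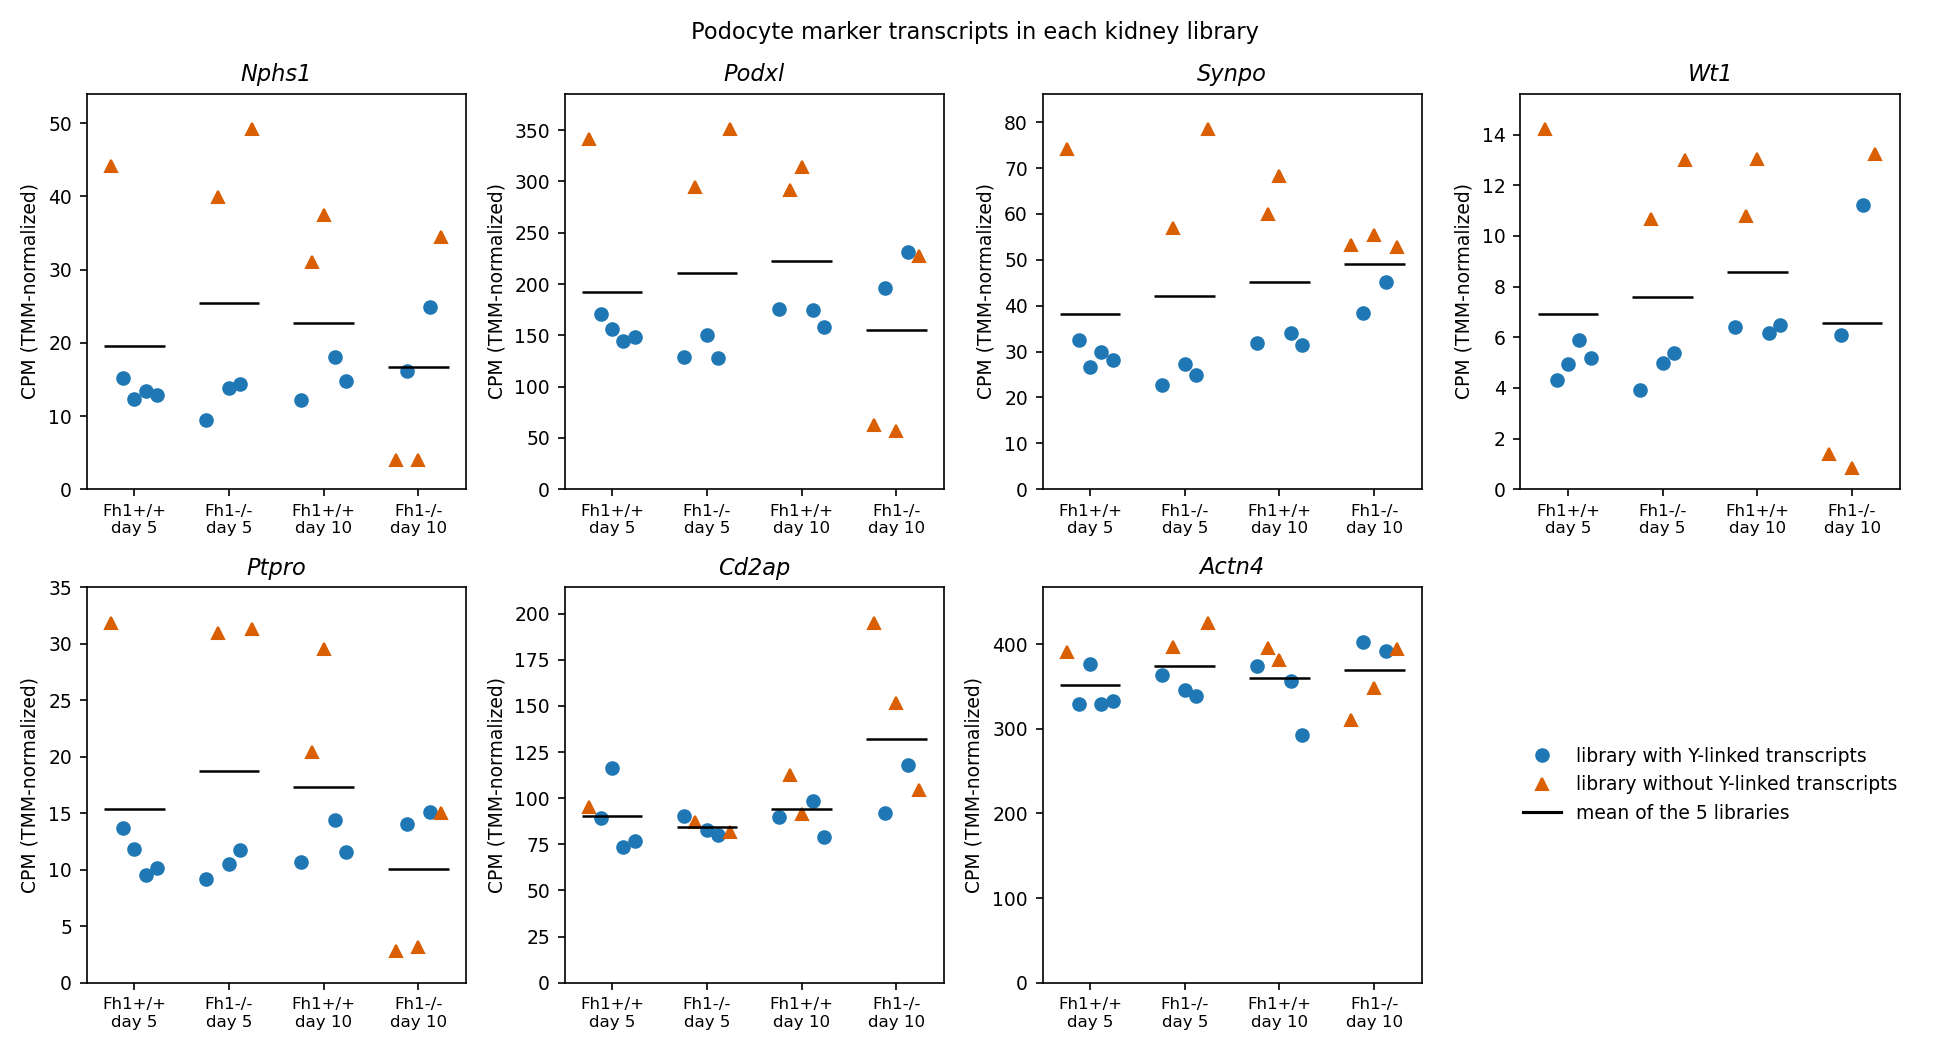
CPM (TMM-normalized, linear axes from 0) of the 7 podocyte genes in each of the 20 libraries, by genotype and day. Each point is 1 library, the bar is the mean of 5, and triangles mark libraries without Y-linked transcripts. Nphs1, Podxl, Wt1 and Ptpro were lowest in 2 Fh1-/- libraries of day 10 (3.98 CPM for Nphs1), where Synpo was at 53.3 and 55.3 CPM and Cd2ap at 195 and 152 CPM.

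Whether the loss of Fh1 changed the podocyte transcripts was tested in each day's 10 libraries with edgeR's quasi-likelihood test. To count as risen or fallen, a gene needed a Benjamini-Hochberg adjusted p over all genes below 0.01 and a log2 fold change beyond 0.58 in either direction. At day 10, 0 of the 7 passed, in a comparison where 0.0557% of 14360 genes did. By DESeq2 0 of the 7 passed as well, against 4.32% of all genes, and at an unadjusted p under 0.05 the edgeR test had 1 of the 7, Cd2ap, against 27.0% of all genes. Cd2ap differed by 0.47 on the log2 scale with a standard error of 0.20 and an adjusted p of 0.164 from edgeR. The CPM of the genotypes overlapped for all 7, as they did for all but 7.85% of the genes tested. Among the surface proteins, the log2 fold changes were -0.45 for Nphs1 (standard error 0.59), -0.54 for Podxl (0.42) and -0.80 for Ptpro (0.51), with adjusted p from edgeR of 0.63, 0.408 and 0.317. Wt1 had -0.40 (0.63), Synpo 0.11 (0.24) and Actn4 0.021 (0.12), with adjusted p from edgeR of 0.699, 0.793 and 0.93. The median of the 7 was -0.40, beside -7e-04 over all genes tested.

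The direction at day 10 depended on which libraries were set side by side. Among the 5 libraries with Y-linked transcripts (2 Fh1-/- and 3 Fh1+/+), all 7 log2 fold changes were above 0: 0.45 for Nphs1, 0.33 for Podxl, 0.25 for Ptpro, 0.44 for Wt1, 0.36 for Synpo, 0.23 for Cd2ap and 0.21 for Actn4. Among the 5 without (3 Fh1-/- and 2 Fh1+/+), they were -1.27, -1.40, -1.83, -1.20, -0.26, 0.55 and -0.16 in the same order. None passed within a class, with edgeR adjusted p from 0.175 to 0.605. The difference between the classes, tested as an interaction in the 10 libraries, was -2.06 on the log2 scale for Ptpro (standard error 0.86), -1.72 for Podxl (0.72) and -0.60 for Synpo (0.17), and their adjusted p from edgeR were 0.339, 0.339 and 0.336. These 3 of the 7 had an unadjusted p under 0.05 from edgeR, as had 14.6% of 15290 genes. In that interaction 0 of the 7 and 0% of all genes passed. Fh1-/- day 10 replicates 1 and 3 were 2 of the 3 Fh1-/- libraries without Y-linked transcripts. Their part in this difference and that of the class cannot be told apart. In replicate 5, of the same class, Nphs1 was at 34.5 CPM, against 31.0 and 37.5 CPM in Fh1+/+. Its Ptpro was at 15.03 CPM, against 20.4 and 29.5 CPM.

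Without Fh1-/- day 10 replicates 1 and 3 the log2 fold changes at day 10 were 0.15 for Nphs1, -0.032 for Podxl, -0.23 for Ptpro, 0.25 for Wt1, 0.0091 for Synpo, 0.15 for Cd2ap and 0.14 for Actn4, none of which passed. In these 2 libraries the tubular injury markers, a list that includes Lcn2, Spp1 and Krt20, summed to 136900 and 130100 CPM. That sum was 3063 to 13900 CPM in the other Fh1-/- libraries of day 10 and 1158 to 2436 CPM in Fh1+/+. It was largely Spp1. The highest value of Spp1 among libraries without Y-linked transcripts was 1.23e+05 CPM, beside 9432 CPM for Lcn2 and 1586 CPM for Krt20. The proximal tubule markers summed to 3045 and 3339 CPM in Fh1-/- day 10 replicates 1 and 3. They summed to 7774 to 11870 CPM in the other Fh1-/- libraries of day 10 and 10280 to 12060 CPM in Fh1+/+. Endothelial markers summed to 298 and 310.0 CPM, against 477 to 659 CPM in the other 3 Fh1-/- libraries of day 10, and mesangial markers to 39.1 and 39.2 CPM, against 73.0 to 91.7 CPM. The 8 injury markers had a median log2 fold change of 3.96 at day 10 with 0 of 8 past the threshold, and the 9 endothelial markers a median of -0.87 with 0 of 9 past the threshold. Over all genes tested, 0.0557% passed. The part of these transcripts in the podocyte values was not tested.

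**Figure D2:**
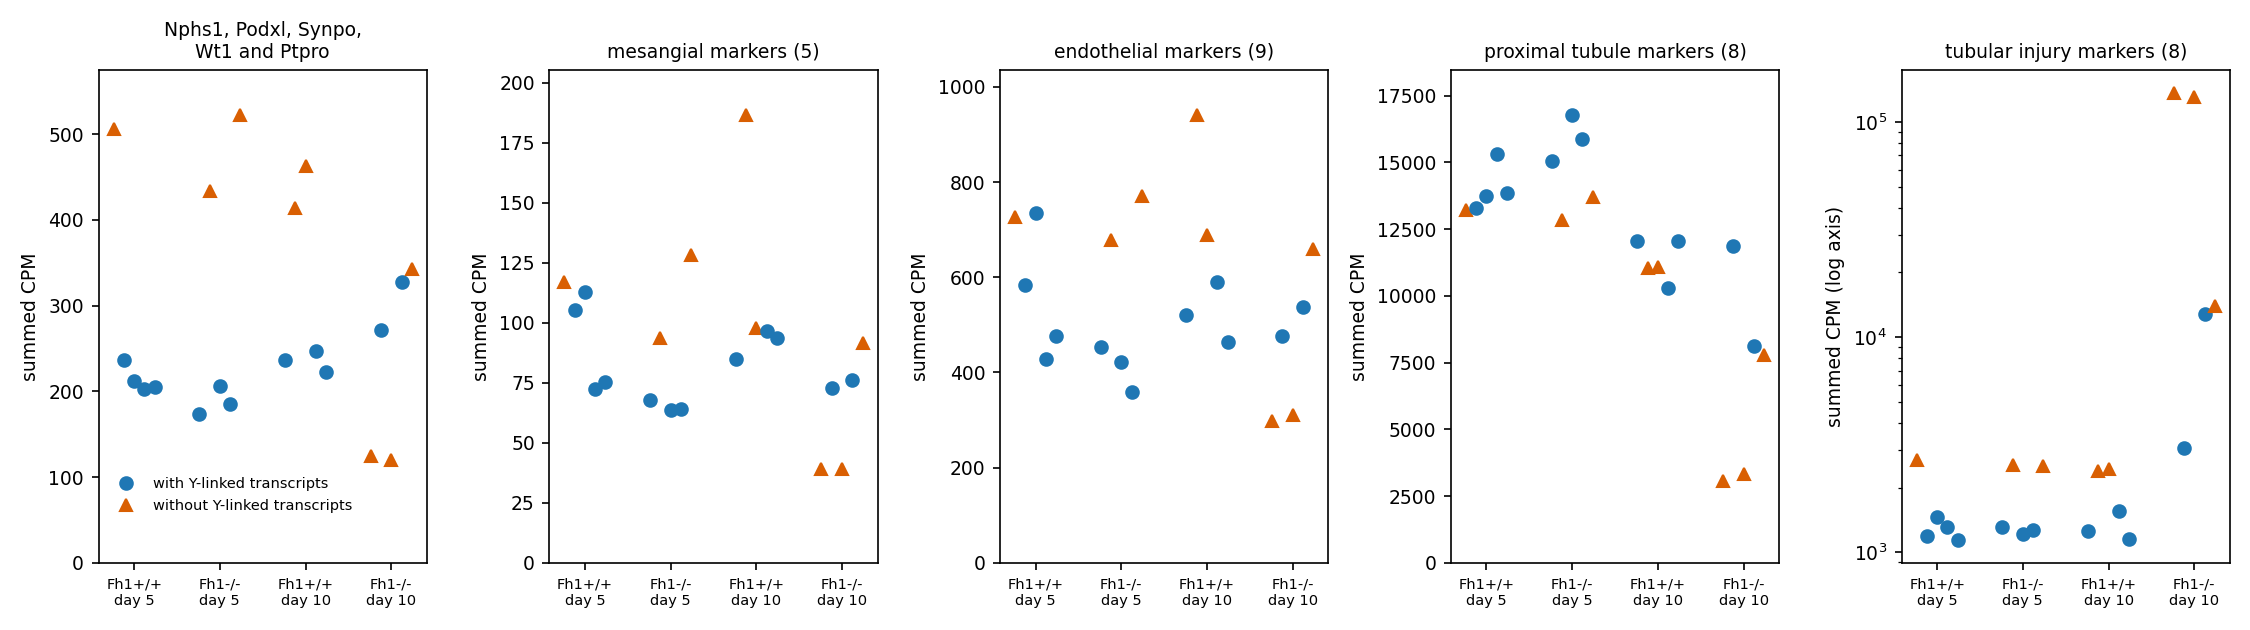
Summed CPM of Nphs1, Podxl, Synpo, Wt1 and Ptpro and of 4 lists of other kidney cells in each library (linear axes from 0, log axis for tubular injury markers), with triangles for libraries without Y-linked transcripts. In Fh1-/- day 10 replicates 1 and 3 the 5 podocyte genes summed to 124 and 119.9 CPM. The mesangial, endothelial and proximal tubule sums were also the lowest of the 20, while the injury sum, largely Spp1, was the highest.

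At day 5 no podocyte gene separated the genotypes, with 0 of 7 past the threshold by edgeR or DESeq2 and 0 of 7 at an unadjusted p under 0.05, beside 0.0347% of 14404 genes past it by edgeR, 0.182% by DESeq2 and 4.78% at the unadjusted p. The log2 fold changes lay between -0.10 for Cd2ap and 0.37 for Nphs1, each with an adjusted p of 1 from edgeR. Nphs1, Podxl, Ptpro, Synpo and Wt1 were above 0 in this comparison and below 0 once the Y-linked class was a term of the fit, where Nphs1 was at -0.071 (standard error 0.12), Podxl at -0.17 (0.076) and Synpo at -0.21 (0.097). With that term the standard error of Nphs1 was 0.12, compared with 0.52 without it.

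The change of the genotype difference from day 5 to day 10, tested on all 20 libraries, passed for 0 of 7, beside 0.0335% of 14934 genes, and by DESeq2 for 0 of 7, beside 1.38%. At an unadjusted p under 0.05 it had 1 of 7, Cd2ap, beside 20.2% of all genes. Cd2ap was at 0.57 on the log2 scale (standard error 0.24, adjusted p = 0.196 from edgeR), and Ptpro had -1.07 (0.71, adjusted p = 0.405 from edgeR).

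Between the days, the podocyte genes of Fh1+/+ kidneys differed by 0.035 to 0.31 on the log2 scale, with 0 of 7 past the threshold by edgeR or DESeq2 and 0 of 7 at an unadjusted p under 0.05. In that comparison 0% of 14501 genes passed, and 3.97% had an unadjusted p under 0.05. In Fh1-/- kidneys 0 of 7 passed by edgeR, beside 0.576% of 14235 genes, 0 of 7 by DESeq2, beside 6.94%, and 1 of 7, Cd2ap, had an unadjusted p under 0.05, beside 32.2%. Cd2ap was the one member whose 2 groups did not overlap, from 84.3 ± 4.23 CPM (SD, n = 5) at day 5 to 132 ± 41.6 CPM (SD, n = 5) at day 10, where the CPM of 12.5% of all genes tested did not overlap. Between the days it differed by 0.63 on the log2 scale (standard error 0.19), with an adjusted p of 0.0547 from edgeR and of 0.0168 from DESeq2, and by 0.29 (0.093, adjusted p = 0.0873 from edgeR) without replicates 1 and 3 of day 10. The spread of Cd2ap was thus wider at day 10, and none of these values passed the 0.01 threshold. Ptpro had -0.91 (0.56), Nphs1 -0.61 (0.66), Podxl -0.46 (0.46) and Wt1 -0.22 (0.66) in this comparison, and Synpo was at 0.20 (0.33) and Actn4 at -0.037 (0.11).

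Nphs1, Podxl, Ptpro, Wt1 and Synpo were higher in Fh1+/+ libraries without Y-linked transcripts. This comparison was added after the values were seen, and it sets libraries side by side that the labels do not group. Among the 10 Fh1+/+ libraries, with the day as a term of the fit, 5 of the 7 were higher in the 3 libraries without Y-linked transcripts than in the 7 with them, where 1.91% of 15252 genes were called higher and 4.47% in either direction. Nphs1 was 2.66 times as high (1.41 on the log2 scale, standard error 0.14, edgeR adjusted p = 0.00011), Ptpro 2.34 times (1.23, 0.16, adjusted p = 0.000733), Wt1 2.22 times (1.15, 0.15, adjusted p = 0.000617), Synpo 2.19 times (1.13, 0.092, adjusted p = 2.8e-05) and Podxl 1.95 times (0.96, 0.084, adjusted p = 4.56e-05). Cd2ap was at 0.16 (0.14, adjusted p = 0.485) and Actn4 at 0.19 (0.089, adjusted p = 0.179) in the same edgeR fit. Without Fh1+/+ day 5 replicate 1, the count was 3 of 7, as Wt1 and Ptpro had adjusted p of 0.0166 and 0.0204 from edgeR, and over all genes the number called higher was 93 of 15188, from 291 of 15252.

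The 5 Fh1-/- libraries of day 5 gave the same 5 genes, higher in the 2 without Y-linked transcripts, where 4.53% of 14702 genes were called higher and 8.08% in either direction. Their log2 fold changes were 1.82 for Nphs1 (standard error 0.17), 1.57 for Ptpro (0.12), 1.43 for Synpo (0.14), 1.31 for Wt1 (0.19) and 1.24 for Podxl (0.11), with adjusted p from edgeR between 0.000131 and 0.00265. Cd2ap was at -0.011 (0.084) and Actn4 at 0.22 (0.076, adjusted p = 0.0637 from edgeR). With 2 libraries in one class the smaller set rests on few kidneys, and Wt1 lost its call without either Fh1-/- day 5 replicate 2 or replicate 5, where the number called higher over all genes was 188 of 14953 and 156 of 14968, from 666 of 14702. Actn4 and the 5 genes were higher without overlap between the classes in both comparisons, as were 7.43% of all genes in Fh1+/+ and 28.9% in Fh1-/- kidneys of day 5, and Cd2ap overlapped in both. In Fh1-/- kidneys of day 10, Synpo was again higher in all 3 libraries without Y-linked transcripts than in the 2 with them, whereas Nphs1, Podxl, Ptpro and Wt1 were lowest in 2 of those 3. That split of 5 libraries was not tested, and the share of all genes it separated was not counted.

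**Figure D3:**
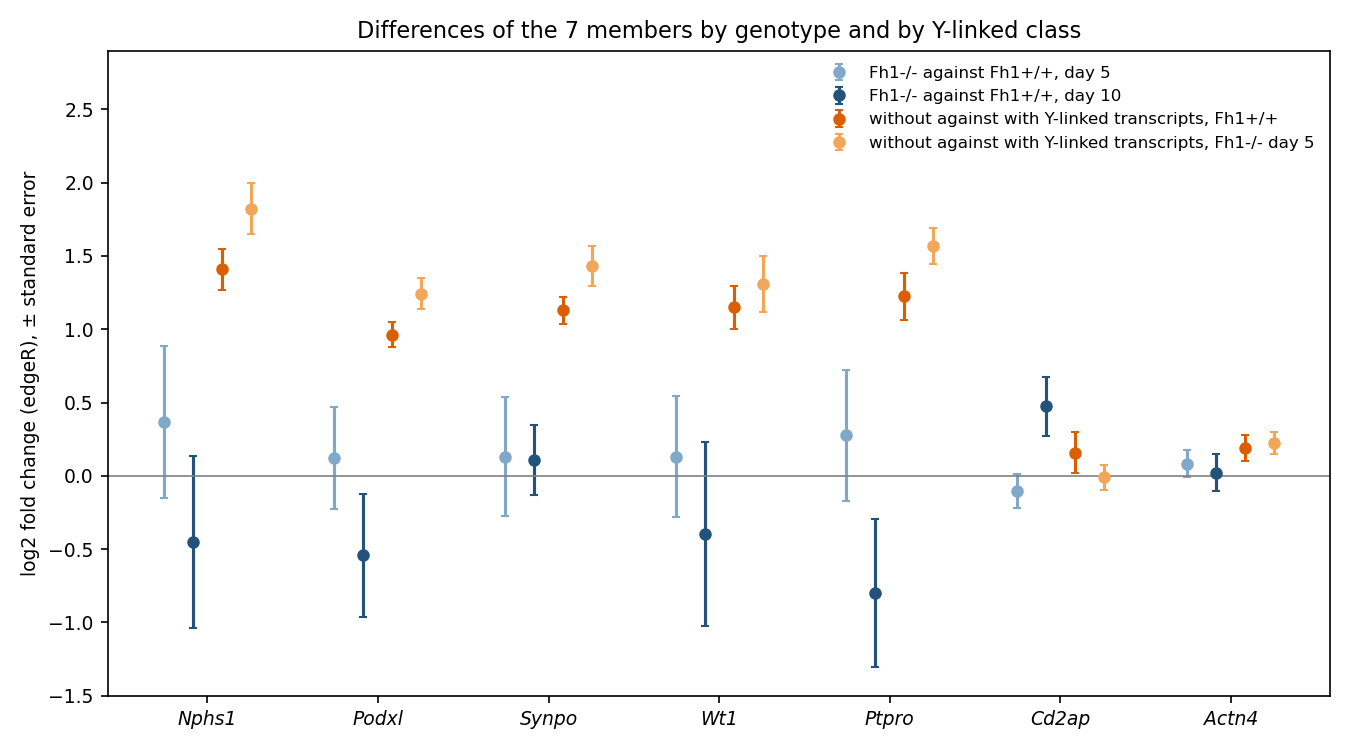
Log2 fold change (edgeR) of each podocyte gene with its standard error as the bar, for Fh1-/- against Fh1+/+ at day 5 and day 10, and for libraries without against with Y-linked transcripts in Fh1+/+ kidneys and in Fh1-/- kidneys of day 5. The class differences of Nphs1, Podxl, Synpo, Wt1 and Ptpro lie between 0.96 and 1.82. The genotype differences of these 5 genes lie on either side of 0, and each has a longer bar than the class differences of the same gene.

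Other genes of the podocyte and its filter were counted in the same way, from lists written with earlier results of these data known. In the genotype comparison of day 10, 0 of 11 tested slit diaphragm genes, 0 of 6 other podocyte transcription factors, 0 of 18 other foot process genes, 0 of 10 genes of the basement membrane and of secreted factors and 0 of 6 other podocyte-enriched genes passed. Over all 14360 genes tested 0.0557% passed, so 0 in a short list is near that share. The medians of these lists were -0.19, -0.45, 0.0496, -0.31 and -0.58 on the log2 scale. Pla2r1, the podocyte phospholipase A2 receptor, had -1.12 (standard error 0.45, adjusted p = 0.152 from edgeR). Relatives of the 7 genes gave 0 of 10 past the threshold, with Actn1, the alpha-actinin of stress fibres, at 1.098 (0.36, adjusted p = 0.1 from edgeR) and Sh3kbp1, which encodes the Cd2ap-related adaptor CIN85, at -1.07 (0.40, adjusted p = 0.128 from edgeR).

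By Y-linked class, the other slit diaphragm genes were higher for 5 of 12 in Fh1+/+ kidneys and for 6 of 11 tested in Fh1-/- kidneys of day 5, with medians of 0.74 and 0.89 on the log2 scale beside 0.01 over all genes in both. Of all genes tested, 1.91% were called higher in Fh1+/+ kidneys and 4.53% in Fh1-/- kidneys of day 5, the shares for each list here. Ddn, which encodes dendrin, a nephrin-binding protein, had the largest difference among them in Fh1+/+ kidneys, 1.39 (standard error 0.14, adjusted p = 0.000123 from edgeR). In Fh1-/- kidneys of day 5, Ddn was at 1.82 (0.18) and passed. Of other podocyte-enriched genes, Thsd7a, a membrane protein of the foot process, and Cdkn1c, the cell cycle inhibitor p57 of mature podocytes, passed in both, with 1.278 and 0.99 in Fh1+/+ and 1.44 and 1.53 in Fh1-/- kidneys of day 5. Of the other podocyte transcription factors 0 of 7 passed in Fh1+/+ kidneys and 1 of 6 tested in Fh1-/- kidneys of day 5, namely Tcf21 at 0.94 (0.16). Of the other foot process genes 1 of 18 and 3 of 18 passed, and Nes, the intermediate filament nestin, was higher in both. Among genes of the basement membrane and of secreted factors 2 of 10 and 3 of 10 passed, and Sema3g and Npnt, a semaphorin and the matrix protein nephronectin, were higher in both, at 0.92 and 0.91 in Fh1+/+ and 1.24 and 1.08 in Fh1-/- kidneys of day 5.

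Markers of neighbouring cells were counted by the same comparison. Over all genes it called 1.91% higher and 4.47% in either direction in Fh1+/+ kidneys. In Fh1-/- kidneys of day 5 these shares were 4.53% and 8.08%. Endothelial markers were higher for 1 of 9 in Fh1+/+ kidneys (Ehd3, of glomerular endothelium) and for 7 of 9 in Fh1-/- kidneys of day 5, with medians of 0.57 and 0.82, and mesangial markers for 0 of 5 and 3 of 4 tested. Over all libraries the endothelial markers summed to 298 to 941 CPM without and 359 to 735 CPM with Y-linked transcripts, and the mesangial markers to 39.1 to 187 and 63.7 to 113 CPM. Among tubule genes, Slc22a6, an organic anion transporter of the proximal tubule, was lower in the libraries without Y-linked transcripts, at -1.14 and -1.34 on the log2 scale, and Slc22a8, another transporter of that family, was higher in Fh1+/+ kidneys at 0.70 and did not pass in Fh1-/- kidneys of day 5, at 0.21. Of the injury markers, Havcr1, which encodes KIM-1, was lower at -2.37 and -3.35, and Spp1, which encodes osteopontin, was higher at 1.19 and 1.197, with list medians of 0.32 and 0.42. The proximal tubule list as a whole had medians of 0.17 and -0.12. The part of these markers in the podocyte values was not tested.

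**Figure D4:**
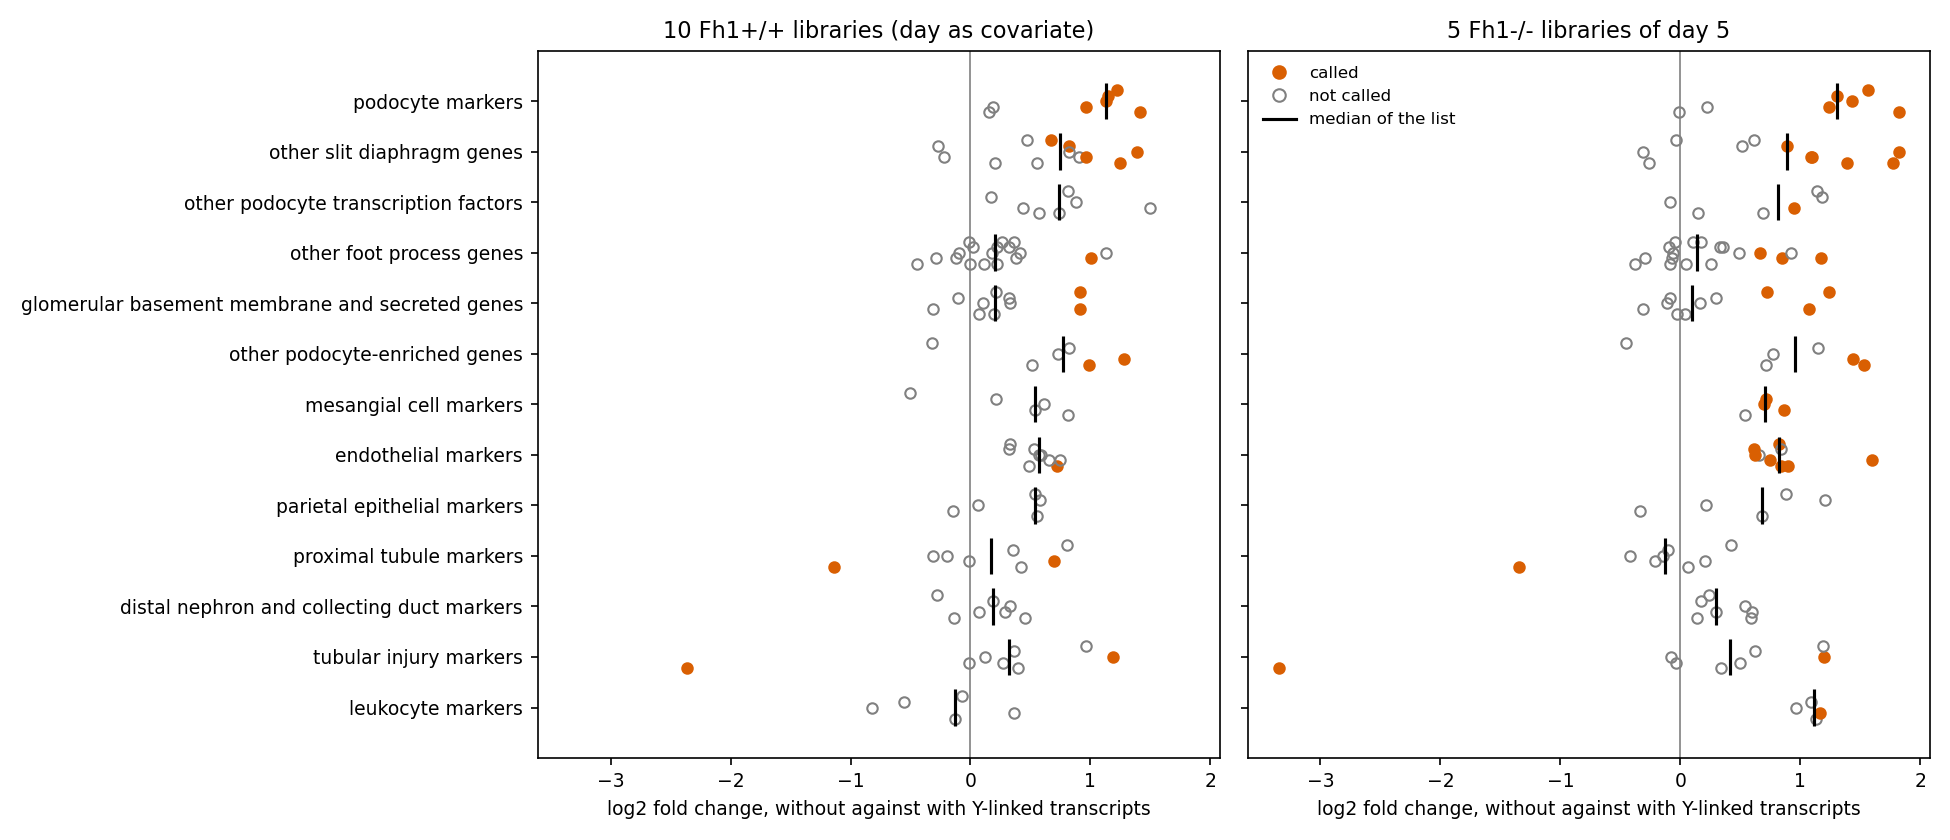
Log2 fold change of each tested gene, for libraries without against with Y-linked transcripts, in 13 lists of podocyte, glomerular, tubule and leukocyte genes, for Fh1+/+ kidneys (left) and Fh1-/- kidneys of day 5 (right). Filled points passed the threshold, open points did not, and black bars are list medians, which are 1.13 and 1.31 for the podocyte markers.

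How far the 7 genes varied together was read from log2 CPM after subtracting each group's mean. As the libraries fall into 2 Y-linked classes, the relation with Nphs1 is given within each class. Among the 12 libraries with Y-linked transcripts, Pearson's r with Nphs1 was 0.82 for Synpo (Spearman's rho 0.82), 0.69 for Ptpro (0.63), 0.61 for Wt1 (0.57), 0.51 for Podxl (0.42), 0.12 for Cd2ap (0.21) and -0.34 for Actn4 (-0.36). By permutation within groups (100000 draws, two-sided), Synpo had p = 0.00845 and Ptpro p = 0.0117, both 0.0352 after adjustment over the 6 pairs, and for rho their adjusted p were 0.0549 and 0.0688. The permutation p of the other 4 pairs were 0.237 or more. Without the 2 libraries farthest from the median of Nphs1, r was 0.74 for Synpo and 0.68 for Ptpro, with the group means not taken anew.

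Among the 8 libraries without Y-linked transcripts the order of the genes was different. Pearson's r with Nphs1 was 0.997 for Podxl, 0.99 for Ptpro, 0.99 for Wt1, 0.84 for Actn4 and -0.89 for Cd2ap, and 0.02 for Synpo. Spearman's rho was 1.00, 0.93, 1.00, 0.71, -0.86 and 0.24 in the same order. So few orders within groups exist here that the smallest permutation p was 0.0409, and the adjusted p of the 6 pairs were 0.122 to 0.918, so that none passed. Without Fh1-/- day 10 replicates 3 and 5, the 2 farthest from the median, r was 0.99 for Podxl, 0.31 for Synpo and -0.96 for Cd2ap. The group means subtracted still held these 2 libraries, so Fh1-/- day 10 replicate 1 stayed far below the others. These r therefore rest largely on that 1 library and cannot show that the relation is robust.

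The ratio of Synpo to Nphs1 was 13.4 and 13.9 in Fh1-/- day 10 replicates 1 and 3, and between 1.43 and 2.61 in the other 18 libraries. The ratio of Cd2ap to Nphs1 was 48.9 and 38.1 in these 2 libraries and 1.66 to 9.48 in the others. Podxl and Ptpro kept closer to Nphs1, with ratios of 14.2 to 15.7 and 0.708 to 0.786 there, against 6.59 to 14.4 and 0.435 to 0.963 elsewhere. Wt1 was at 0.214 and 0.354 of Nphs1 in them and at 0.264 to 0.525 in the others. These are descriptions of 2 libraries, with no test.

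**Figure D5:**
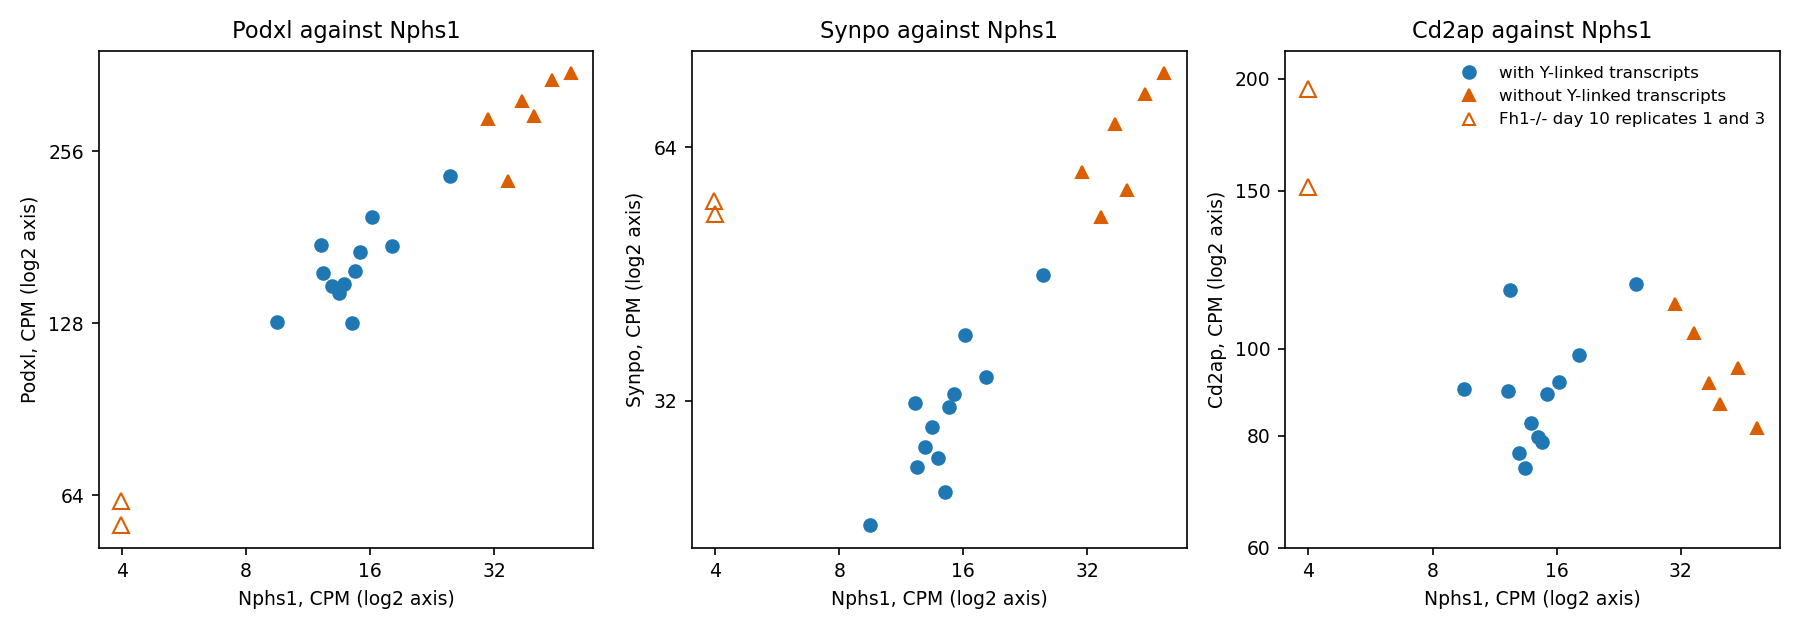
Podxl, Synpo and Cd2ap against Nphs1 in CPM on log2 axes, 1 point for each of the 20 libraries. Podxl is highest and lowest in the libraries where Nphs1 is. It follows Nphs1 less closely among libraries with Y-linked transcripts than among those without them. Fh1-/- day 10 replicates 1 and 3 (open triangles, Nphs1 at 3.98 CPM) have Synpo at 53.3 and 55.3 CPM and the 2 highest Cd2ap values.

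Of 13695 genes with a mean of 1 CPM or more, those whose log2 CPM was most like the mean of Nphs1, Podxl, Synpo, Wt1 and Ptpro over the 20 libraries, centred by group, were Thsd7a (Pearson's r 0.98), Cdkn1c (0.98), Myom2 (0.97), Nphs1os (0.96), Shisa3 (0.96), Adamtsl2 (0.96), Sema3g (0.96), Cav1 (0.94), Tm4sf1 (0.94) and Rab3b (0.94). These are descriptions over libraries that share the Y-linked classes. Without centring, 8 of the 10 were the same, with 2310007B03Rik (0.94) and Sema3e (0.93) in place of Adamtsl2 and Tm4sf1. Of the 10 centred genes, 3 were in a list written earlier (Thsd7a, Cdkn1c and Sema3g). Nphs1os is transcribed from the opposite strand within Nphs1 and held 817 reads over all libraries, against 8345 for Nphs1, and no source used here says whether the counting used strand, so its reads and those of Nphs1 cannot be told apart. Capn12 overlaps the end of Actn4 on the opposite strand, with 13170 reads against 139332.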

How the data were processed

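Kidney RNA was sequenced as stranded polyadenylated libraries in 20 samples, grouped by the labels. Per the labels and the paper's methods, the authors trimmed adapters (Cutadapt), aligned with STAR 2.6.0c to GRCm38, dropped reads that mapped with low quality, and deposited raw counts per gene symbol made with Rsubread and GENCODE models. Replicates were not pooled. The 7 genes and all lists were chosen with earlier results of these data known.

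Each comparison was fitted here with edgeR 4.0.16 in R 4.3.3 (TMM, filterByExpr, quasi-likelihood test, Benjamini-Hochberg over all genes). The study's cutoffs were used: adjusted p under 0.01 and log2 fold change beyond 0.58 either way. DESeq2 1.42.0 and limma 3.58.1 (voom with quality weights) were among the alternatives. Scripts were tested on simulated data. CPM were TMM-normalized, and log2 CPM used a prior count of 2. Libraries with a summed Y-linked level over 10 CPM were put in one class, the rest in the other. The study describes its in vivo replicates as biological, and each group held libraries of both Y-linked classes. The 40 pairs of libraries within groups all differed by more than sampling noise. Positions came from GENCODE vM21. Named genes were all 7, list members that passed a comparison or, failing that, up to 4 per list by smallest p at day 10, and the 10 genes most like the 5 podocyte-enriched ones. Results for 2 members of these lists are not reported here.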

Additional observations from a re-analysis of the deposited data

Results flagged for a closer look

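Fh1+/+ day 5 replicate 1 stood far above the other 4 libraries of its group for 5 podocyte genes. It was at 44.1 CPM for Nphs1, 342 CPM for Podxl, 74.1 CPM for Synpo, 14.2 CPM for Wt1 and 31.8 CPM for Ptpro, and the gap to the next library took up 0.911, 0.867, 0.877, 0.838 and 0.811 of the whole range of the group. It is the only library of its group without Y-linked transcripts. These 5 came from 28 sets of 5 libraries (7 genes in 4 groups), chance alone flags about 1 in 20 such sets, and the 5 genes share the same library. The genotype difference at day 5 without this library was 0.91 on the log2 scale for Nphs1, compared with 0.37 with it, and did not pass.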

How the results depend on the processing

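In all 5 comparisons of genotype and day, 0 of the 7 genes passed under each alternative run: DESeq2, RLE scaling, no filter or 1 CPM in 5 libraries, a cutoff of 0.05 on the adjusted p alone, voom with quality weights, the replicate block, one fit of all 20 libraries (not run for the difference between days), each library left out, and, chosen after seeing the data, the Y-linked class as a covariate or split and the loss of Fh1-/- day 10 replicates 1 and 3. The Y-linked class comparison kept 5 of 7 under the 6 other settings, 3 to 5 with each Fh1+/+ library left out (3 without day 5 replicate 1) and 4 to 5 in Fh1-/- kidneys of day 5, where leaving out either library without Y-linked transcripts leaves a lone sample of that class, taken to vary like the others. For the relation with Nphs1 over all 20 libraries, 5 of 6 pairs passed an adjusted permutation p under 0.05, and 3 did after centring on group and class, 2 in libraries with and 0 in libraries without Y-linked transcripts. The replicate numbers were not taken as pairs. Samples sharing a number had correlations of -0.58 to 0.432 in their deviations from the group means. These deviations also carry the Y-linked class, so they cannot exclude a pairing, and the study used littermate controls handled at the same time. The replicate block gave 0 of 7 in every comparison. None of the log2 fold changes below that turned direction had passed, and the cause was not tested.

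The genotype difference at day 10 turned to 0.0706 for Nphs1 and 0.0864 for Wt1 with voom with quality weights, 0.15 for Nphs1 and 0.25 for Wt1 with both replicates left out, 0.30 for Nphs1, 0.0824 for Podxl and 0.34 for Wt1 with the class as a covariate and both replicates left out, 0.45 for Nphs1, 0.33 for Podxl, 0.44 for Wt1 and 0.25 for Ptpro with only libraries with Y-linked transcripts, -0.26 for Synpo and -0.16 for Actn4 with only libraries without them. The genotype difference at day 5 turned to -0.0708 for Nphs1, -0.17 for Podxl, -0.21 for Synpo, -0.15 for Wt1 and -0.0942 for Ptpro with the class as a covariate, -0.10 for Nphs1, -0.20 for Podxl, -0.23 for Synpo, -0.0983 for Wt1 and -0.12 for Ptpro with only libraries with Y-linked transcripts, -0.0035 for Nphs1, -0.0992 for Podxl, -0.15 for Synpo, -0.28 for Wt1 and -0.0493 for Ptpro with only libraries without them, -0.0815 for Podxl and -0.0942 for Synpo with voom with quality weights. The change of that difference between days turned to 0.0511 for Nphs1, 0.28 for Synpo, 0.0969 for Wt1 and 0.0256 for Actn4 with voom with quality weights, 0.0102 for Synpo with the replicate block, 0.12 for Synpo with the class as a covariate, 0.11 for Wt1 and 0.0503 for Actn4 with both replicates left out. Day 10 against day 5 in Fh1+/+ turned to -0.0024 for Nphs1, -0.0283 for Ptpro and -0.004 for Actn4 with the class as a covariate. Day 10 against day 5 in Fh1-/- turned to 0.38 for Nphs1, 0.21 for Podxl, 0.52 for Wt1 and 0.0723 for Actn4 with voom with quality weights, 0.0346 for Podxl, 0.40 for Wt1 and 0.0607 for Actn4 with both replicates left out. The Y-linked class in Fh1-/- kidneys of day 5 turned to 0.0068 for Cd2ap with the stricter filter, 0.0052 for Cd2ap with voom with quality weights. With each library left out in turn, the genotype difference at day 10 ran from -0.0435 to 0.0859 for Actn4, the genotype difference at day 5 ran from -0.0191 to 0.91 for Nphs1, -0.14 to 0.44 for Podxl, -0.22 to 0.52 for Synpo, -0.15 to 0.58 for Wt1 and -0.17 to 0.0055 for Cd2ap, the change of that difference between days ran from -0.41 to 0.32 for Synpo and -0.11 to 0.0083 for Actn4, day 10 against day 5 in Fh1+/+ ran from -0.0453 to 0.76 for Nphs1, -0.11 to 0.62 for Ptpro, -0.008 to 0.17 for Cd2ap and -0.0004 to 0.10 for Actn4, day 10 against day 5 in Fh1-/- ran from -0.64 to 0.0564 for Wt1 and -0.0706 to 0.0192 for Actn4, the Y-linked class in Fh1-/- kidneys of day 5 ran from -0.0589 to 0.035 for Cd2ap. The r of Cd2ap with Nphs1, -0.39 over all 20 libraries, was 0.21 without Fh1-/- day 10 replicates 1 and 3 and 0.12 in libraries with Y-linked transcripts, and that of Actn4, 0.73 over all, was -0.34 in libraries with them.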
